A study of Rattus norvegicus with 42 samples.

Results

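Oligodendrocyte precursor and differentiation genes were examined in the hippocampus of neonatal rats given an anti-seizure drug, as 10 genes chosen by symbol: the precursor surface genes Pdgfra and Cspg4, the lineage transcription factors Olig1, Olig2, Sox10 and Nkx2-2, and the differentiation genes Bmp4, Gpr17, Enpp6 and Myrf. Each of the 10 had 1 transcript among the 15516 of the count table, and all 10 passed the filter on low counts that left 13062 transcripts to test. Male Sprague Dawley pups received 1 intraperitoneal injection on postnatal day 7 of phenobarbital (PB, 75 mg/kg), levetiracetam (LEV, 200 mg/kg) or saline vehicle (VEH), and hippocampi were taken 72 h later, on postnatal day 10. Both drugs are anti-seizure medications given to newborns, and PB enhances inhibition through GABA-A receptors while LEV binds the synaptic vesicle protein SV2A. All pups, vehicle pups included, were killed with an overdose of pentobarbital, itself a barbiturate, and perfused with cold buffer, so the groups share that exposure. The study took 1 pup per litter for each treatment from 2 orders of animals, and the sample codes have 2 forms, one for animals 1 to 6 of each treatment and one for animals 7 to 14, which the labels do not tie to those orders. After the VEH animal that the study excluded was set aside, 41 animals remained: 6 per treatment among animals 1 to 6, and 7 VEH, 8 PB and 8 LEV among animals 7 to 14. The drugs were compared within each form.

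Oligodendrocytes make the myelin of the central nervous system, and in the rat hippocampus most of the lineage at this age is still immature. Precursors carry the PDGF alpha receptor (Pdgfra) and the proteoglycan NG2 (Cspg4), and depend on PDGF to divide. OLIG2 and SOX10 hold the lineage identity through all stages, with OLIG1 and NKX2-2 acting as differentiation starts. Cells that commit to differentiate lose PDGFRA, pass briefly through a stage marked by BMP4, the receptor GPR17 and the phosphodiesterase ENPP6, and switch on MYRF, the transcription factor that activates myelin genes.

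Total counts per animal ran from 9499492 to 14488134 (median 11319144). Values are given as normalised read counts, scaled to a common library of 11405252 reads, so levels are compared between animals for 1 gene and never between genes, whose transcript lengths were not used here. Hippocampal and neuronal markers were present in every animal (Neurod6, a pyramidal neuron factor, 2788 to 4131; Rbfox3, a neuronal nuclear protein, 386 to 665) and all 10 lineage genes were counted in every animal. RNA of neighbouring tissue varied: the choroid plexus transcript Ttr ran from 9.21 to 81378. The summed level of skeletal muscle transcripts, without Pvalb, was 423 to 579 in VEH, 194 to 271 in PB and 345 to 693 in LEV among animals 1 to 6. It was 158 to 312 over all groups of animals 7 to 14. Kcnj13 (choroid plexus) and Myh4 (muscle) were each at 0 in 1 animal. In whole hippocampus, fewer cells of a type and less RNA per cell cannot be told apart.

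Promoter windows were available from RefSeq for 7 of the 10 genes (250 bases before to 50 after the start, build GRCr8, whereas the counts used rn6). Those of Enpp6, which showed the largest drug difference among the 10, and of Pdgfra, the precursor gene it is set against below, are printed so that their sequence can be compared. Capitals mark the E-box letters CANNTG, which read the same on both strands and which basic helix-loop-helix factors such as OLIG2 can bind.
Enpp6, chr16:52026679-52026978, minus strand: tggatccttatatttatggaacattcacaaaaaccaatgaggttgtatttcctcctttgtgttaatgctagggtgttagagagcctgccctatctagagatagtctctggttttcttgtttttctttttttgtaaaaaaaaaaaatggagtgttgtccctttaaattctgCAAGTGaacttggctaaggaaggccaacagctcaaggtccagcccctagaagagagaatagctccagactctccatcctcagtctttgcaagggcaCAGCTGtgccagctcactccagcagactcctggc
Pdgfra, chr14:33408467-33408766, minus strand: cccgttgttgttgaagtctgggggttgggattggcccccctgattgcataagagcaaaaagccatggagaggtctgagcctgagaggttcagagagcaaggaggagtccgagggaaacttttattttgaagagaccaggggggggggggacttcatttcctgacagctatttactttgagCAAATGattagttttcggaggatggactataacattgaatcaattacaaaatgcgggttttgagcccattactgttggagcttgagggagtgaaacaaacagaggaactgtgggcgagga
An E-box of any kind lay in 3 of the 7 windows (Enpp6 and Bmp4 with 2 each, Pdgfra with 1) and in 72.1% of 33469 rat promoter windows of the same length. The CAGCTG form, a subset of CANNTG, lay in Enpp6 and Bmp4 and in 15.1% of all windows. A SOX motif (ACAAAG or AACAAT, either strand) lay in Enpp6 and in 27.7% of all, and the MYRF motif (CTGGNAC, either strand) lay in Enpp6 and Olig2 and in 18.2% of all. Enpp6 was thus the member with a match to each motif searched, which describes these 300 bases and not binding.

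Among animals 7 to 14, PB pups had more RNA of 2 differentiation genes, Enpp6 and Myrf, than VEH pups. Among animals 1 to 6, LEV pups had less Gpr17 than VEH pups, with Pdgfra also lower by a smaller amount. The drug difference of Gpr17 ran in opposite directions in the 2 forms of sample code, for both drugs. A transcript is called here when edgeR's quasi-likelihood test gave a Benjamini-Hochberg adjusted p under 0.05 over all 13062 transcripts and a log2 fold change of at least 0.32 in size.

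**Figure D1:**
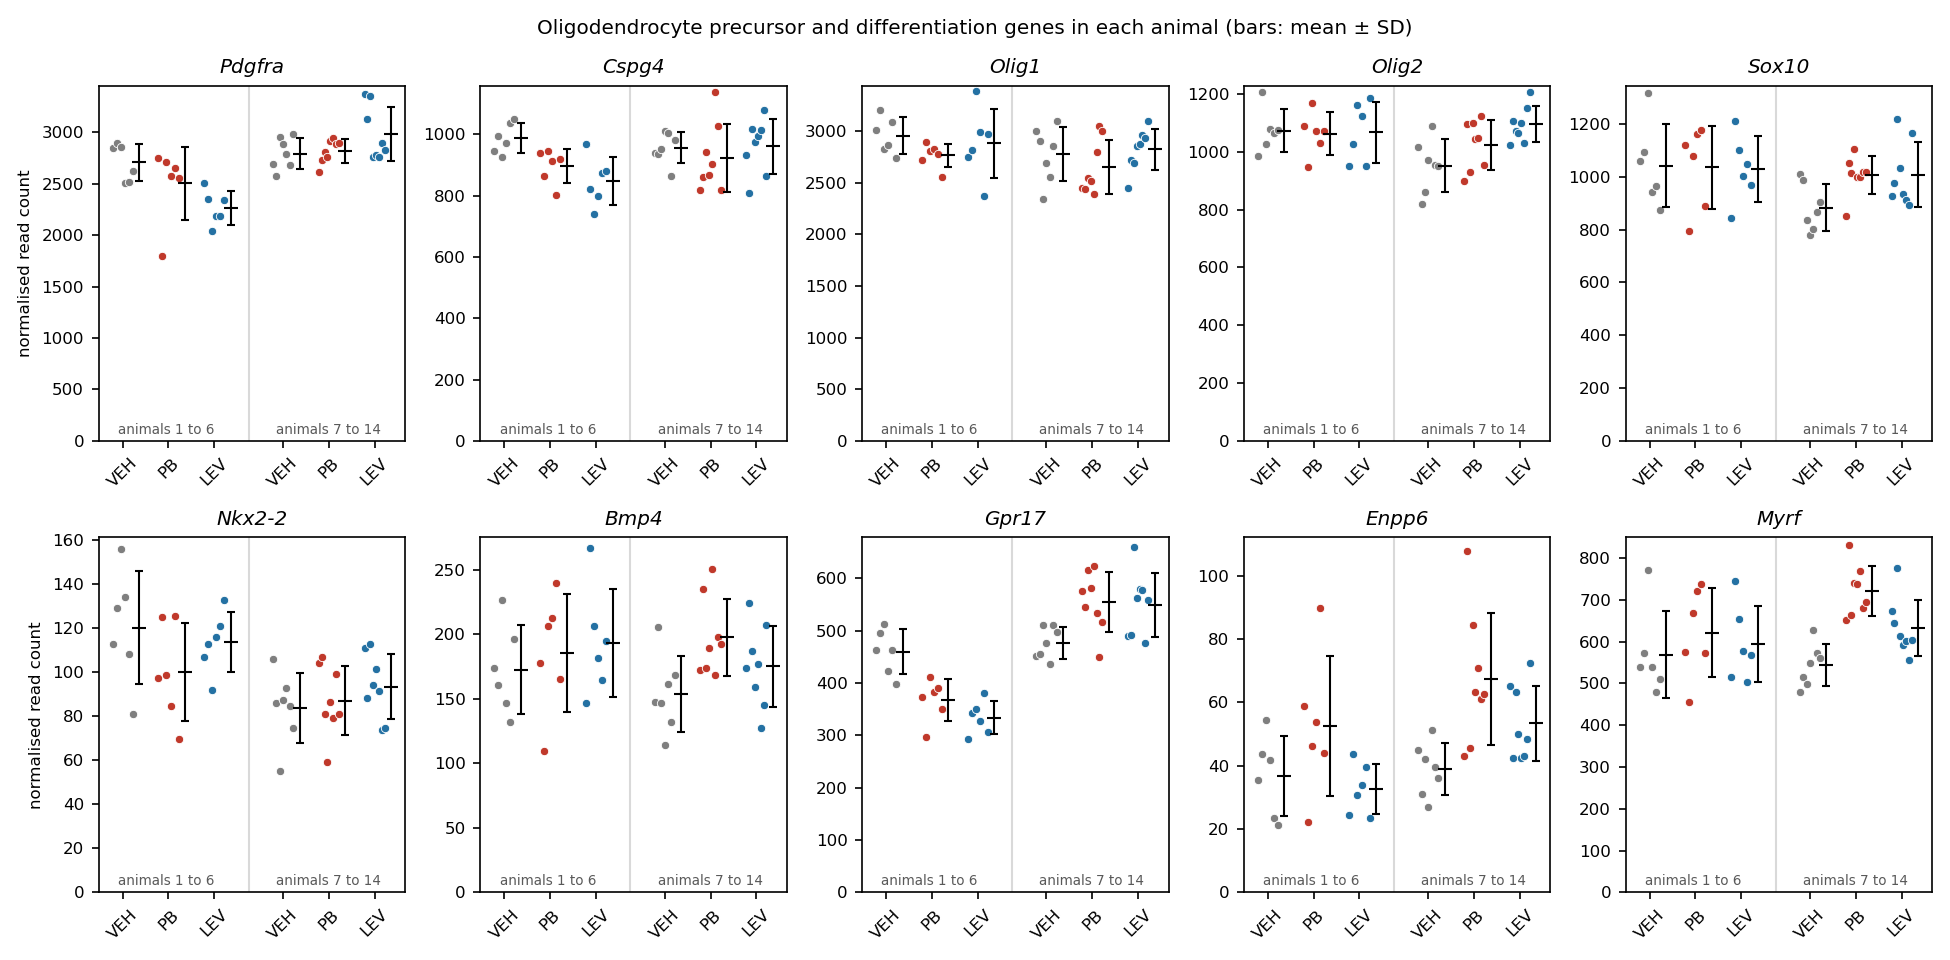
Normalised read count (y axis, from 0) of each of the 10 genes in each of the 41 animals, by treatment and form of sample code (x axis); points are animals and bars the mean ± SD. Gpr17 in LEV animals 1 to 6 lies between 293 and 382, below all VEH animals of that form (398 to 513), and Myrf in PB animals 7 to 14 lies between 653 and 831, above the VEH animals (479 to 628).

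Pdgfra, the receptor through which PDGF drives precursor division (chromosome 14, 35527926 to 35581032 in rn6), was lower in LEV than in VEH among animals 1 to 6. The VEH animals of that form had 2509, 2733 and 2897 (lowest, median and highest), the PB animals 1797, 2611 and 2748, and the LEV animals 2037, 2263 and 2511. All 6 LEV animals were below the VEH mean, although the highest LEV animal and the lowest VEH animal overlapped slightly, and 1 PB animal lay far under its group. LEV was lower by 0.26 on the log2 scale (log2 fold change -0.26, SE 0.07, adjusted p = 0.0443), a change under the limit on fold, and PB differed by -0.11 (SE 0.07, adjusted p = 0.609). Among animals 7 to 14 the VEH animals had 2572, 2785 and 2981, the PB animals 2610, 2851 and 2942, and the LEV animals 2757, 2864 and 3371. The 3 groups overlapped, with 3 LEV animals above all others, and the log2 differences from VEH were 0.01 for PB (SE 0.06, adjusted p = 0.922) and 0.10 for LEV (SE 0.06, adjusted p = 0.865). The low Pdgfra in LEV did not keep its adjusted p in every fit. Leaving out any 1 of VEH animals 1, 2, 3 or 6, or LEV animals 2 to 6, took it over 0.05, to at most 0.155. Leaving out any 1 of PB animals 1 or 3 to 6 took it to between 0.0515 and 0.0579. PB animals are not in this comparison and act on it only through the shared filter, scaling and spread. The log2 difference stayed between -0.28 and -0.22. Fibroblast-like cells of the leptomeninges also express Pdgfra. Of 11 of their transcripts, 0 passed in LEV against VEH among animals 1 to 6, beside 1.45% of all transcripts. Their median was -0.23 with 3 of 11 above 0, and their summed level was 3916 to 9326 in LEV and 4386 to 8494 in VEH. Over the 41 animals, with group means removed, Pdgfra varied with the level of these fibroblast transcripts at r = 0.69. It also varied with the levels of myelin (0.57), newly formed oligodendrocyte (0.46), pericyte (0.44) and choroid plexus transcripts (0.44). The r with the myelin level was higher for Myrf (0.84), Enpp6 (0.74), Sox10 (0.71) and Bmp4 (0.69). For the remaining genes it ran from -0.11 (Cspg4) to 0.29 (Olig2). With the level of the other precursor transcripts Pdgfra was at 0.10. That level ran from -0.30 with Gpr17 to 0.15 with Nkx2-2 over the genes examined, with Cspg4 at -0.08. A low r with it was thus not particular to Pdgfra. These values are a description from the same libraries. The part of fibroblast-like cells in the Pdgfra result was not tested.

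Cspg4, the NG2 proteoglycan of precursors and also of pericytes (chromosome 8, 61532465 to 61567511), had 926 to 1049 in VEH, 802 to 947 in PB and 740 to 968 in LEV among animals 1 to 6. All 6 PB and all 6 LEV animals were below the VEH mean of 988 ± 49.4 (SD, n = 6), and the groups overlapped. The log2 differences were -0.14 for PB (SE 0.07, adjusted p = 0.507) and -0.22 for LEV (SE 0.07, adjusted p = 0.101), neither past the test. The ranges among animals 7 to 14 were 863 to 1012 in VEH, 820 to 1138 in PB and 809 to 1079 in LEV, with log2 differences of -0.05 and 0.01. The summed level of 9 pericyte transcripts was 1907 to 2302 in VEH and 1805 to 2363 in LEV among animals 1 to 6. In that comparison 0 of 9 passed, beside 1.45% of all transcripts.

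Of the lineage transcription factors, 0 of 4 passed in any comparison with VEH in edgeR. Olig1, next to Olig2 on chromosome 11 (31428377 to 31430520, against 31389514 to 31392891 for Olig2), had log2 differences between -0.10 and 0.02 over the 4 comparisons with VEH. Its levels were 2736 to 3207 in VEH, 2558 to 2890 in PB and 2373 to 3384 in LEV among animals 1 to 6, and 2341 to 3093, 2391 to 3052 and 2450 to 3095 among animals 7 to 14. The groups overlapped throughout.

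Olig2, which specifies the lineage, overlapped fully between the treatments of animals 1 to 6, with 984, 1071 and 1205 in VEH, 948, 1071 and 1170 in PB, and 952, 1076 and 1187 in LEV. Among animals 7 to 14 the VEH animals had 821, 953 and 1091, the PB animals 898, 1046 and 1125, and the LEV animals 1023, 1087 and 1208. All 8 LEV animals were above the VEH mean there, and the groups overlapped. The log2 difference for LEV was 0.20 (95% interval 0.08 to 0.32, unadjusted p = 0.00144 in edgeR's model over all transcripts), which did not pass after adjustment (adjusted p = 0.555), and that for PB was 0.11 (95% interval -0.01 to 0.22, adjusted p = 0.297).

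Sox10, the factor that activates myelin genes together with MYRF (chromosome 7, 120393254 to 120403524), had 876 to 1317 in VEH, 794 to 1176 in PB and 845 to 1212 in LEV among animals 1 to 6, and log2 differences of -0.01 and -0.02. In animals 7 to 14 it had 779 to 1010 in VEH, 851 to 1104 in PB and 892 to 1220 in LEV. There 7 of 8 PB and 8 of 8 LEV animals were above the VEH mean of 883 ± 89.0 (SD, n = 7), with log2 differences of 0.19 for each drug (SE 0.09) and adjusted p of 0.190 for PB and 0.802 for LEV. Nkx2-2, a homeobox factor of the switch to differentiation (chromosome 3, 141408798 to 141411171), was counted at 55 to 155 reads per animal. Its log2 differences from VEH ran from -0.26 (PB, animals 1 to 6, SE 0.15, adjusted p = 0.590) to 0.16 (LEV, animals 7 to 14, SE 0.14, adjusted p = 0.898), and at this depth the 95% intervals reached from -0.57 to 0.44.

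Gpr17, a receptor held by committed precursors and newly formed oligodendrocytes and lost as they mature (chromosome 18, 24734330 to 24735350), showed the clearest difference between the 2 forms. In VEH pups its level was alike in both: 398, 463 and 513 among animals 1 to 6, and 435, 477 and 512 among animals 7 to 14. PB pups had 297, 377 and 411 in the first and 449, 560 and 624 in the second, and LEV pups had 293, 335 and 382 in the first and 477, 560 and 659 in the second. Thus every PB and LEV animal of animals 1 to 6 was below every PB and LEV animal of animals 7 to 14.

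Against VEH, Gpr17 fell in LEV animals 1 to 6 by 0.46 on the log2 scale (SE 0.08, fold 0.727, adjusted p = 0.00073, 6 of 6 animals below the VEH mean), and the LEV and VEH animals did not overlap. PB animals 1 to 6 were at -0.32 (SE 0.08, adjusted p = 0.115), with 6 of 6 below the VEH mean and a small overlap. This missed the limit in edgeR and passed it in DESeq2 (adjusted p = 0.0286). Among animals 7 to 14, PB was at 0.22 (SE 0.07, adjusted p = 0.0570, 7 of 8 above the VEH mean) and LEV at 0.20 (SE 0.07, adjusted p = 0.722, 8 of 8 above). For PB there, the adjusted p of Gpr17 was under 0.05 in DESeq2 (0.0384) and with the choroid plexus (0.0452) or muscle covariate (0.0368). It was also under 0.05 without any 1 of VEH animal 10, PB animals 2, 13 or 14, or LEV animal 9 (0.0187 to 0.0495). The change stayed under the limit on fold in each. PB animal 2 and LEV animal 9 are not in this comparison and act on it only through the shared filter, scaling and spread.

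The test of the difference itself passed for both drugs. The LEV effect on Gpr17 was 0.66 higher on the log2 scale among animals 7 to 14 than among animals 1 to 6 (SE 0.11, adjusted p = 0.000465), and the PB effect 0.54 higher (SE 0.11, adjusted p = 0.0213). Both drugs are set against the same VEH animals, so these are not independent results. Gpr17 was the 1 of 10 genes to pass in each test, and over all transcripts 0.842% passed for LEV and 0.0689% for PB. Pdgfra came next for LEV, at 0.35 (SE 0.09, adjusted p just over 0.05). The differences of all 10 genes were above 0 for both drugs, with medians of 0.23 for PB and 0.22 for LEV, beside -0.01 and -0.01 over all transcripts. The Gpr17 difference for PB lost its call without VEH animal 2 (adjusted p = 0.0614), VEH animal 3 (0.0647) or PB animal 11 (0.0505), and that for LEV kept its call whichever animal was left out. That for Pdgfra passed without any 1 of VEH animals 4, 10 or 14, PB animals 2 or 7, or LEV animals 1, 11 or 12, at adjusted p between 0.00689 and 0.0477. PB animals 2 and 7 act on that LEV test only through the shared filter, scaling and spread.

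The Gpr17 transcript lies inside the span of Lims2, a focal adhesion gene (24708115 to 24746160), and strand use in counting was not stated, so reads of overlapping exons cannot be assigned with certainty. Lims2 itself was counted at a low level, 5.51 to 26.5 normalised reads against 293 to 659 for Gpr17. Its log2 differences from VEH among animals 1 to 6 were -0.24 for LEV (SE 0.29, adjusted p = 0.821) and 0.42 for PB (SE 0.28, adjusted p = 0.646), and among animals 7 to 14 they were -0.20 for LEV and -0.11 for PB (SE 0.26 each). The part of Lims2 reads in the Gpr17 result was not tested. Other glia moved beside Gpr17 in LEV animals 1 to 6. The summed level of 16 astrocyte transcripts was 34527 to 38927 there and 40341 to 47592 in VEH, without overlap. Of the 16, 5 passed downward and 1 upward, beside 1.45% of all transcripts passed. The downward ones were of Slc1a3, Slc1a2 and Aqp4 alone, with Aqp4 counted more than once at identical values. The upward one was another Slc1a3 transcript (1.14, beside -0.42 for the one that fell). The part of astrocytes in the Gpr17 result was not tested. With the muscle level as a covariate the Gpr17 difference was -0.46 for LEV and -0.51 for PB (adjusted p = 0.000603 and 0.171). The covariate was the mean log2 level of the muscle transcripts, whereas the level given above is their sum. That sum did not overlap between PB and VEH in animals 1 to 6, and with the covariate the SE for PB went from 0.08 to 0.16. Muscle and treatment thus cannot be well told apart there. Pvalb, which interneurons also express, was left out of both muscle values. With the choroid plexus level the Gpr17 differences were -0.46 and -0.32.

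**Figure D2:**
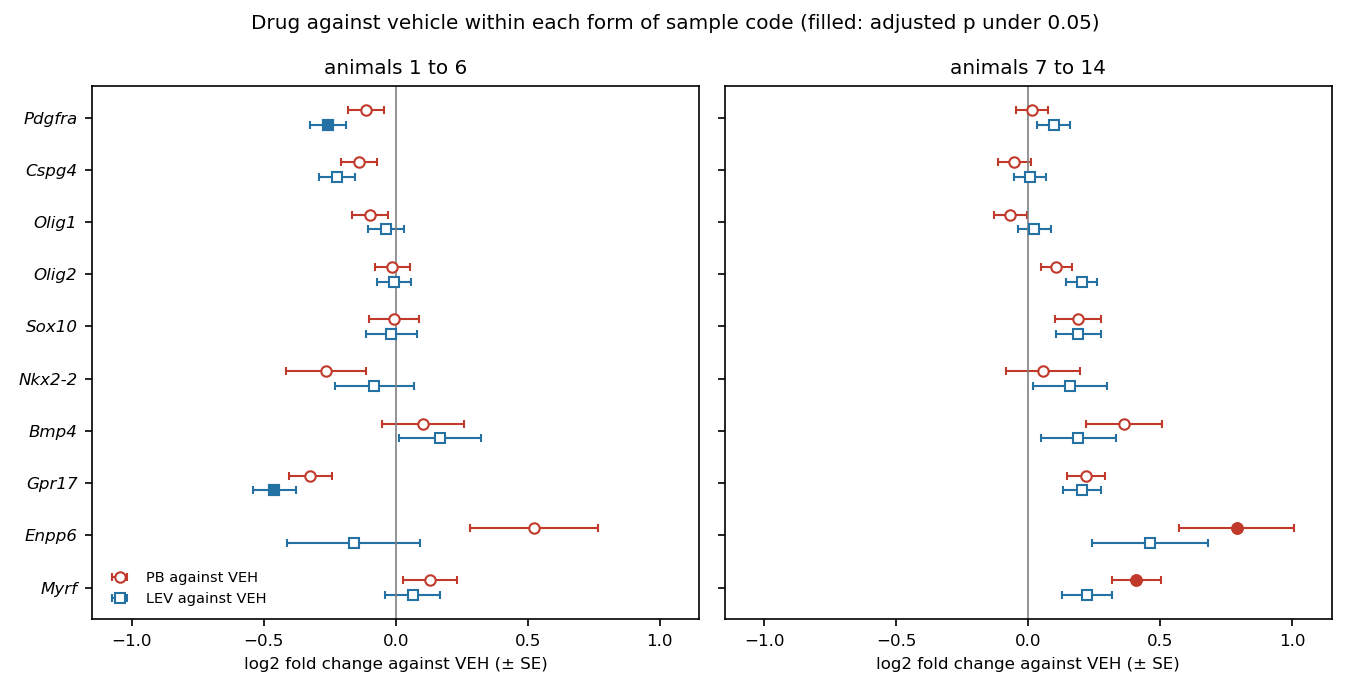
Log2 fold change against VEH with its SE (x axis) for each gene (y axis), for PB (circles) and LEV (squares) within each form of sample code; filled symbols passed an adjusted p of 0.05. Gpr17 lies at -0.32 and -0.46 in the left panel and at 0.22 and 0.20 in the right one, while Enpp6 for PB lies to the right of 0 in both (0.52 and 0.79).

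Enpp6, a choline phosphodiesterase that marks newly forming oligodendrocytes (chromosome 16, 48319990 to 48437243), was higher after PB. Among animals 7 to 14 the VEH animals had 26.8, 39.7 and 51.1, the PB animals 43.1, 63.0 and 108, and the LEV animals 42.5, 49.1 and 72.4. All 8 PB animals were above the VEH mean, with 2 of them inside the VEH range. PB was higher by 0.79 on the log2 scale (SE 0.22, fold 1.73, adjusted p = 0.0242), and LEV by 0.46 (SE 0.22, adjusted p = 0.808, 8 of 8 above the VEH mean). Among animals 1 to 6 the VEH animals had 21.2, 38.6 and 54.3, the PB animals 22.3, 50.002 and 89.9, and the LEV animals 23.6, 32.3 and 43.6. These overlapped widely, and the log2 differences were 0.52 for PB (SE 0.24, adjusted p = 0.481) and -0.16 for LEV (SE 0.25, adjusted p = 0.867). Enpp6 had the fewest reads of the 10 genes, 22 to 94 per animal, and the widest spread. Its call in animals 7 to 14 was lost without VEH animal 9 (adjusted p = 0.0509), VEH animal 11 (0.0618), PB animal 8 (0.0588) or PB animal 10 (0.0515), with the log2 difference at 0.66 or more in each.

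Myrf, the master regulator of myelin genes (chromosome 1, 226260558 to 226292481), rose in PB animals 7 to 14. The VEH animals there had 479, 549 and 628, the PB animals 653, 717 and 831, and the LEV animals 556, 609 and 776. Every PB animal was above every VEH animal, and the LEV animals lay between and overlapped both. PB was higher by 0.41 on the log2 scale (SE 0.09, fold 1.33, adjusted p = 0.00753) and LEV by 0.22 (SE 0.09, adjusted p = 0.785, 8 of 8 above the VEH mean). Among animals 1 to 6 the VEH animals had 481, 540 and 772, the PB animals 456, 622 and 737, and the LEV animals 505, 573 and 745, in full overlap, with log2 differences of 0.13 and 0.06. The call in animals 7 to 14 held whichever of the 41 animals was left out. The PB effect on Myrf was 0.28 higher among animals 7 to 14 than among animals 1 to 6, with a 95% interval from just under 0 to 0.56 (adjusted p = 0.454), and that on Enpp6 0.27 higher (SE 0.33, adjusted p = 0.821), so neither was shown to differ between the forms.

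Bmp4, a secreted ligand expressed for a short time by committed precursors (chromosome 15, 20776216 to 20779803), had 114, 148 and 206 in VEH, 169, 191 and 251 in PB and 128, 176 and 224 in LEV among animals 7 to 14. All 8 PB animals were above the VEH mean, and the groups overlapped. PB was at 0.36 (SE 0.14, adjusted p = 0.117) and LEV at 0.19 (SE 0.14, adjusted p = 0.886). Among animals 1 to 6 the levels were 132 to 226 in VEH, 110 to 240 in PB and 147 to 267 in LEV, with log2 differences of 0.10 and 0.17.

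Read over the 10 genes, PB against VEH in animals 7 to 14 called 2 (Enpp6 and Myrf, both higher), beside 1.52% of all transcripts called and 6.32% past adjusted p alone. PB against VEH in animals 1 to 6 called 0 in edgeR, with 3 at an unadjusted p under 0.05, beside 0.0459% called and 0.0842% past adjusted p. DESeq2 called 1 there, Gpr17. LEV against VEH in animals 1 to 6 called 1 (Gpr17, lower) and passed 2 with Pdgfra, beside 0.911% called and 1.45% passed. LEV against VEH in animals 7 to 14 called 0 in edgeR and in DESeq2, with 5 at an unadjusted p under 0.05 and all 10 differences above 0 (median 0.19), beside 0.0383% called and 0.0383% passed. The medians over the 10 genes were -0.05 and -0.06 for PB and LEV in animals 1 to 6 and 0.15 for PB in animals 7 to 14, with medians over all transcripts between 0.00 and 0.01. With the excluded VEH animal put back, 0 of the 10 genes were called in any of these comparisons. That animal is one of animals 7 to 14. It reached the comparisons of animals 1 to 6 only through the filter, scaling and spread shared by all groups. Markers of other cells moved in PB animals 7 to 14 too: 9 neuronal transcripts summed to 48242 to 53901 in PB and 55879 to 59274 in VEH, without overlap, and 1 of the 9 passed, downward. Of 16 astrocyte transcripts 2 passed upward and 1 downward, with Gfap, the astrocyte filament protein, higher by 0.46 (SE 0.08, adjusted p = 0.00113, 8 of 8 animals above the VEH mean). The downward one was Aldoc, under the limit on fold (-0.25, SE 0.05, adjusted p = 0.0018, 8 of 8 below). The summed astrocyte level overlapped, at 42620 to 50500 in PB and 44831 to 51087 in VEH. Of 7 microglial transcripts 1 passed, the lysosomal protein Cd68, higher by 1.11 (SE 0.23, adjusted p = 0.0043, 8 of 8 above). Gfap, Aldoc and Cd68 were named after their values were seen. Their part in the Enpp6 and Myrf results was not tested. With the choroid plexus level as a covariate the differences were 0.74 for Enpp6 and 0.39 for Myrf (adjusted p = 0.0322 and 0.0103), and with the muscle level 0.78 and 0.38 (adjusted p = 0.0265 and 0.00895).

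The 2 drugs were not told apart by any of the 10 genes. PB against LEV called 0 in animals 1 to 6 (beside 0.0459% of all transcripts called and 0.145% passed), 0 in animals 7 to 14 (0.528% and 1.66%) and 0 over all animals (0.582% and 4.45%), in edgeR and in DESeq2 alike. At an unadjusted p under 0.05 there were 2, 1 and 1. The largest difference was that of Enpp6, higher in PB by 0.68 among animals 1 to 6 (95% interval 0.18 to 1.18, adjusted p = 0.241) and by 0.33 among animals 7 to 14 (95% interval -0.08 to 0.74, adjusted p = 0.428). Over all animals it was 0.47 (SE 0.16, adjusted p = 0.0824), and without PB animal 2 it passed (0.52, adjusted p = 0.0425). For Myrf in animals 7 to 14 all 8 PB animals were above the LEV mean, by 0.19 (95% interval 0.01 to 0.37, adjusted p = 0.269).

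Over all 41 animals, with the form of sample code as a term, PB against VEH called 1 of the 10 (Enpp6, 0.66, SE 0.17, adjusted p = 0.0136, 13 of 14 PB animals above the VEH mean), beside 0.605% of all transcripts. Myrf passed the adjusted p but not the fold (0.28, SE 0.07, adjusted p = 0.0138, 13 of 14 above), beside 5.39% of all transcripts past adjusted p, and without VEH animal 3 it was called (0.33, adjusted p = 0.00234). Gpr17 lay at -0.03 for PB and -0.10 for LEV in this fit, where the opposite differences of the 2 forms were averaged. LEV against VEH called 0 of the 10 in edgeR and in DESeq2, with 2 at an unadjusted p under 0.05, beside 0% of all transcripts called and 0.00766% passed.

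Other genes of the lineage were read from lists beside the 10. Of 16 further precursor genes, 13 were tested through 19 transcripts. In LEV against VEH among animals 1 to 6, 5 of the 19 fell past the adjusted p and 4 were called, while 0 rose, with a median of -0.14, beside 1.45% of all transcripts passed and 0.911% called. The leading ones were Sox6, which keeps precursors immature (-0.64, SE 0.11, adjusted p = 0.000653), the phosphatase Ptprz1 (-0.37, SE 0.07, adjusted p = 0.000857) and the proteoglycan versican, Vcan (-0.53, SE 0.10, adjusted p = 0.00218). In each, 6 of 6 LEV animals were below the VEH mean, and the summed level of the list was 17811 to 19470 in LEV and 21000 to 23738 in VEH. The remaining call was a further Ptprz1 transcript (-0.37, SE 0.08, adjusted p = 0.00957), so the calls came from these genes alone. Ptprz1 and Vcan are also made by astrocytes, whose transcripts fell in the same animals (above). In animals 7 to 14 the list passed 0 of 19 for LEV (median 0.04), beside 0.0383% of all transcripts. For PB there, 1 rose and 2 fell past the adjusted p with 0 called (median 0.14). Over all transcripts 6.32% passed and 1.52% were called for PB.

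Of 16 genes of newly formed oligodendrocytes, 15 were tested through 16 transcripts. In PB against VEH among animals 7 to 14, 3 of the 16 rose past the adjusted p and 1 was called, Frmd4a, a scaffold protein (0.34, SE 0.05, adjusted p = 1.92e-05, 8 of 8 animals above the VEH mean), and 0 fell, with a median of 0.19, beside 6.32% passed and 1.52% called over all transcripts. In LEV against VEH among animals 1 to 6, 2 fell and 1 was called, Itpr2, a calcium release channel of differentiating cells (-0.36, SE 0.08, adjusted p = 0.00957). Over all transcripts 1.45% passed and 0.911% were called in that comparison. Over all animals PB called Tcf7l2, a factor of Wnt signalling that promotes differentiation (0.35, SE 0.11, adjusted p = 0.0446), beside 0.605% of all transcripts called.

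Signals and factors that act on the 10 genes were read from lists in the same way. Counts for LEV in animals 1 to 6 stand beside 1.45% of all transcripts passed and 0.911% called. Those for PB in animals 7 to 14 stand beside 6.32% passed and 1.52% called. Of the PDGF ligands and the second receptor, 0 of 5 passed in any comparison with VEH. Of 22 BMP pathway transcripts, 2 were called in LEV against VEH among animals 1 to 6, both lower and both type I receptors: Bmpr1a (-0.45, SE 0.07, adjusted p = 8.92e-05) and Bmpr1b (-0.93, SE 0.18, adjusted p = 0.00151). Id3 of that list rose past the adjusted p, under the limit on fold, in PB animals 7 to 14 (0.23, SE 0.07, adjusted p = 0.0452). Of 10 Notch pathway transcripts 1 was called in LEV animals 1 to 6, Notch3, a receptor mainly of vascular mural cells (-0.44, SE 0.08, adjusted p = 0.000857). Of 22 transcripts of factors that work with OLIG2 and SOX10, 5 rose past the adjusted p in PB against VEH among animals 7 to 14 and 2 were called, the SOX factors Sox11 (0.45, SE 0.09, adjusted p = 0.00355) and Sox5 (0.39, SE 0.12, adjusted p = 0.0378), which are also made by immature neurons. Nfia of that list fell past the adjusted p, under the limit on fold, in LEV animals 1 to 6 (-0.29, SE 0.08, adjusted p = 0.0360). In PB against VEH among animals 1 to 6 and in LEV against VEH among animals 7 to 14, 0 transcripts of these lists passed in edgeR. Over all transcripts 0.0842% and 0.0383% passed there.

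The difference in the LEV effect between the forms was not limited to Gpr17. Of the precursor, newly formed, BMP and Notch lists, 3, 2, 2 and 1 transcripts passed that test, beside 0.842% of all transcripts, and each of these 8 was higher among animals 7 to 14: Sox6 (0.94), Vcan (0.58) and Ptprz1 (0.38), Itpr2 (0.49) and Frmd4a (0.32), Bmpr1b (1.30) and Bmpr1a (0.52), and Notch3 (0.43), with adjusted p from 0.00032 for Sox6 to 0.0361 for Notch3. For the PB effect 0 transcripts of these lists passed in edgeR, beside 0.0689% of all transcripts. In the same test, 4 of 16 astrocyte transcripts passed upward and 1 downward for LEV, with Aqp4 among the upward ones more than once at identical values.

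Myelin transcripts, the next stage, did not follow Enpp6 and Myrf after PB. Of 23 transcripts tested, 0 passed in PB against VEH within either form. Over all transcripts 0.0842% passed there in animals 1 to 6 and 6.32% in animals 7 to 14. For PB among animals 7 to 14, 8 of 23 were above 0 (median -0.10). In LEV against VEH among animals 7 to 14, 22 of 23 were above 0 (median 0.44) and 0 passed, beside 0.0383% of all transcripts. Set against LEV in animals 7 to 14, PB called 4 myelin transcripts lower, among them Opalin (-2.42, SE 0.54, adjusted p = 0.0127) and Mobp (-2.05, SE 0.48, adjusted p = 0.0189), with 8 of 8 PB animals under the LEV mean in both, beside 0.528% of all transcripts called. Opalin was scarce, 0.98 to 17.7 normalised reads in PB and 9.89 to 46.9 in LEV. Over all animals it was called lower in PB than in VEH as well (-1.39, SE 0.41, adjusted p = 0.0339).

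**Figure D3:**
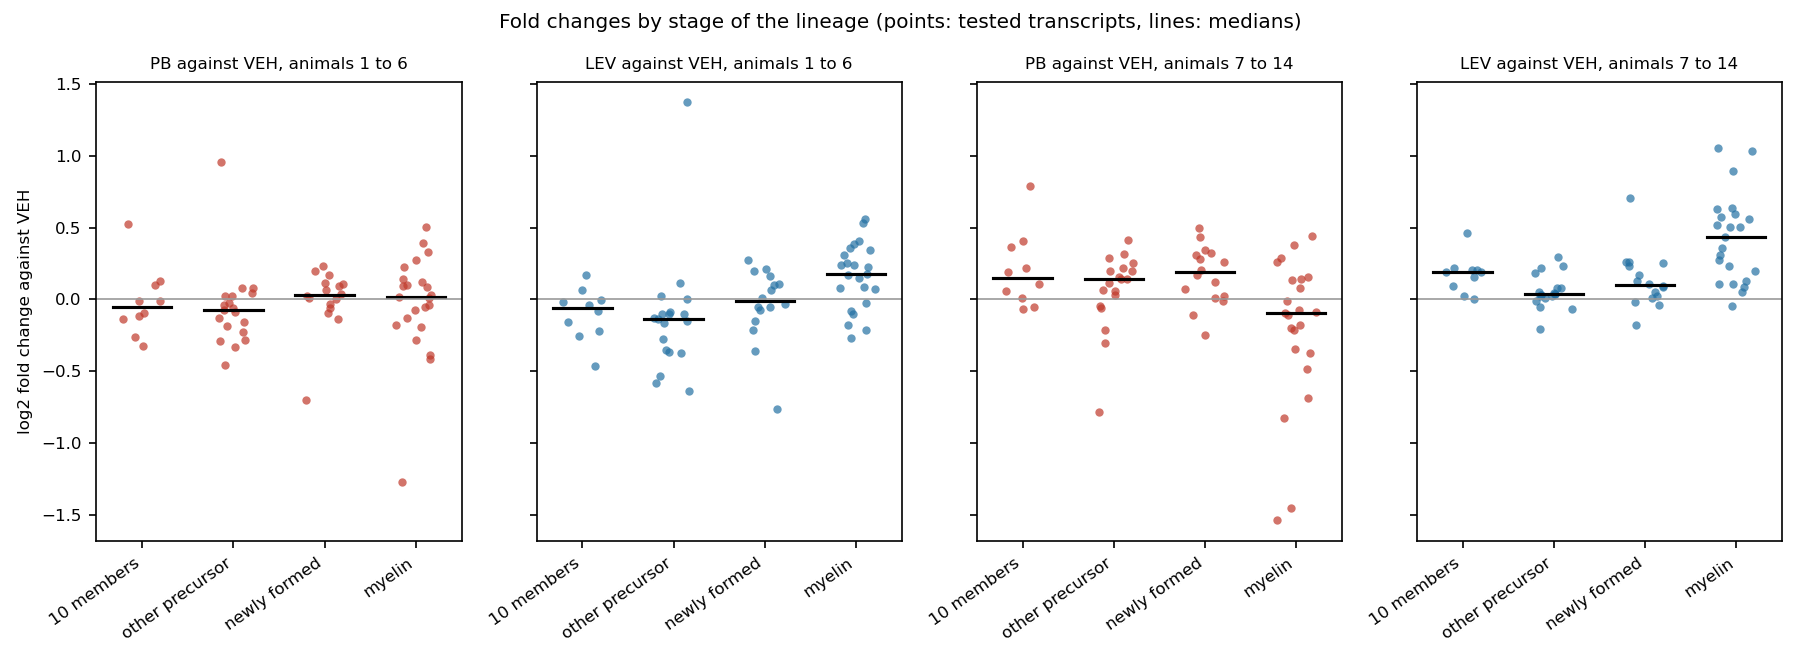
Log2 fold change against VEH (y axis) of each tested transcript (points) of the 10 genes, the further precursor genes, newly formed oligodendrocyte genes and myelin genes (x axis), in 4 comparisons with VEH; lines are medians. For PB in animals 7 to 14 the medians are 0.15, 0.14, 0.19 and -0.10 from left to right, and for LEV in animals 1 to 6 they are -0.06, -0.14, -0.01 and 0.18.

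How the 10 genes varied together between animals of 1 group was read from log2 values with the 6 group means removed, over 41 animals. Of 45 pairs, 8 passed a two-sided permutation test of Pearson's r after adjustment over the 45, all positive, and the differentiation genes with Sox10 made up 7 of them. Sox10 ran with Enpp6 at r = 0.69 (permutation p = 1e-05, adjusted 0.00045, where 100000 draws allow no lower p) and Spearman's rho = 0.65 (permutation p = 7e-05, adjusted 0.00157). Without the 2 animals farthest from the median of Sox10 it was 0.60, and it was 0.83 over the 18 animals 1 to 6 and 0.47 over the 23 animals 7 to 14. Enpp6 ran with Myrf at r = 0.67 (permutation p = 3e-05, adjusted 0.00045) and rho = 0.59 (permutation p = 0.00023, adjusted 0.00345), with 0.57 without 2 animals, and 0.74 and 0.54 within the forms. Bmp4 ran with Myrf at r = 0.67 (permutation p = 5e-05, adjusted 0.00056) and rho = 0.58 (permutation p = 0.00047, adjusted 0.00529), with 0.55 without 2 animals, but 0.90 and 0.28 within the forms.

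The remaining pairs to pass were Sox10 with Bmp4 (0.67), Myrf (0.65) and Gpr17 (0.55), Bmp4 with Enpp6 (0.52) and Pdgfra with Myrf (0.50), the last 2 with an adjusted p of 0.10 each by Spearman's rho. Within animals 7 to 14 Sox10 and Gpr17 were at 0.24 and Sox10 and Myrf at 0.22, against 0.84 and 0.87 within animals 1 to 6. PB animal 2 had the lowest level of PB animals 1 to 6 for Pdgfra, Sox10, Bmp4, Gpr17, Enpp6 and Myrf. Pdgfra and Cspg4, both precursor surface genes, were at 0.21 (permutation p = 0.167, adjusted 0.342) and Olig1 and Olig2, neighbours on chromosome 11, at 0.34 (permutation p = 0.0622, adjusted 0.187). Cspg4 with Bmp4 was the most negative pair at -0.37 (permutation p = 0.0174, adjusted 0.0781).

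**Figure D4:**
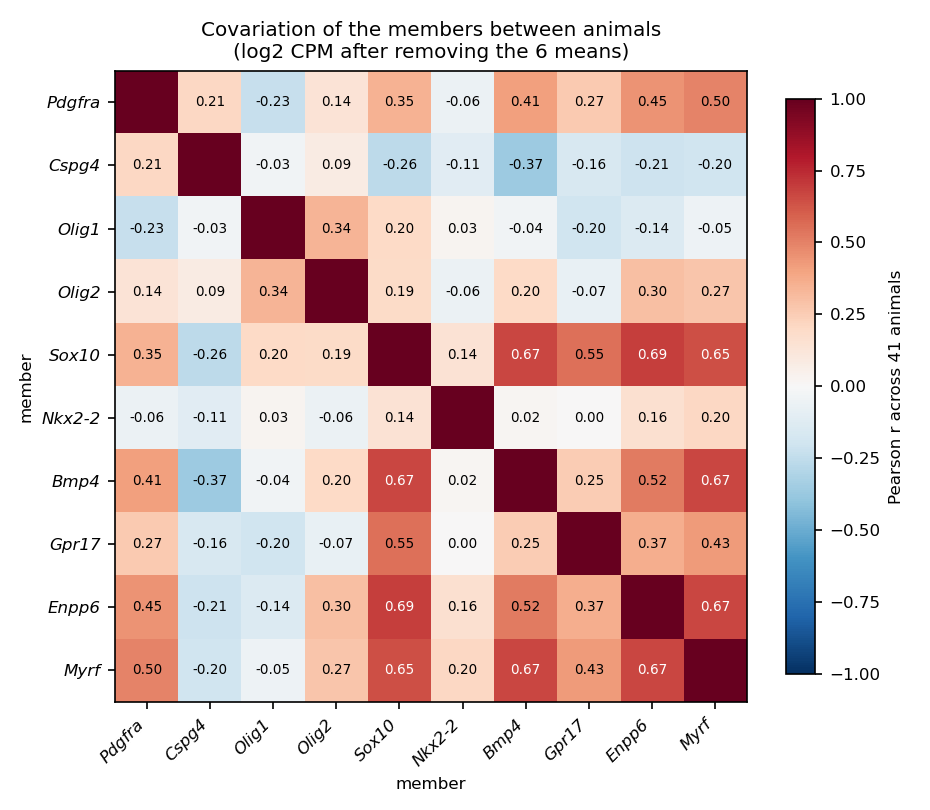
Pearson's r between each pair of the 10 genes (both axes) over 41 animals, on log2 CPM with the 6 group means removed. Sox10, Bmp4, Enpp6 and Myrf form a block between 0.52 and 0.69, while Nkx2-2 and Olig1 stay between -0.23 and 0.34 with all others.

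Among 11017 transcripts with a mean of at least 50 counts, transcripts that varied most like each gene over the 41 animals give a description of what shares its variation, with no test. Myrf varied closely with the myelin gene Cnp (r = 0.86), and Sox10 was most like the myelin gene Mag (0.76) and Sirt2 (0.76), a deacetylase abundant in oligodendrocytes. Bmp4 was most like Pnlip (0.78) and Sirt2 (0.77). Gpr17 was most like the adhesion gene Cadm2 (0.66) and the GABA synthesis enzyme Gad2 (0.66). Pdgfra was most like Sc5d, an enzyme of cholesterol synthesis (0.74), and Col26a1 (0.70), and Cspg4 like Sympk (0.73) and Disp2 (0.66). Olig1 was nearest Dapk3 (0.70) and Mpg (0.68), Olig2 nearest Utp23 (0.55) and Srsf9 (0.52), and Nkx2-2 nearest Rsl1d1 and Rsl1d1l1 (0.66 each), a near-identical pair that shares reads. Enpp6, under 50 counts on average, was not ranked.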

How the data were processed

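RNA-seq of whole hippocampus from 42 pups was used. The authors filtered out adaptor and low-quality sequence, aligned the reads with STAR 2.7.3a to rn6 and quantified RefSeq transcripts by the E/M method in Partek, and deposited estimated counts per transcript, of which 13.7% were not whole and were rounded (all 10 genes were whole). They also deposited a table of their own DESeq2 comparisons (fold changes and p-values), not used here, made after batch and its interaction with treatment were taken out by a linear model. The counts used here precede that step. The members and lists were chosen with earlier results of these data known. Named were all members, at most 3 called transcripts per list and comparison, the most abundant marker of each other cell type, and the 2 transcripts most like each member. Some transcripts that this rule names are not reported here. R 4.3.3 with edgeR 4.0.16 fitted quasi-likelihood models after filterByExpr and TMM scaling: 1 with 6 means (treatment by form of sample code), for comparisons within a form and their difference, and 1 with treatment plus form, over all animals. All groups of a model share its filter, scaling and spread, so an animal can move the adjusted p of a comparison it is not in. Differences between forms were called on adjusted p alone. The median drug difference over all transcripts lay between -0.01 and 0.01 in every comparison. Simulated counts for PB against VEH in animals 7 to 14 (13062 transcripts) recovered 185 of 200 2-fold changes with 7 false calls. Alternatives were DESeq2 1.42.0, its size factors, other filters, counts summed per symbol, all 14 VEH animals, choroid plexus and muscle covariates, a replicate block, only 1 form, and leaving out each animal. Replicates are separate pups. The SE of a log2 difference is its size over the square root of edgeR's F statistic. Intervals use that SE and state the uncertainty of a mean difference, estimated from the spread between pups.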

Additional observations from a re-analysis of the deposited data

Results flagged for a closer look

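Among 60 groups of 6 to 8 animals examined for 1 animal far from its group (Dixon's criterion, which chance meets in about 1 of 20 groups), 3 had one. Pdgfra in PB animal 2 was 1797, against 2553 to 2748 in the other PB animals 1 to 6. Sox10 in PB animal 7 was 851, against 998 to 1104 in the other PB animals 7 to 14. Myrf in VEH animal 3 was 772, against 481 to 573 in the other VEH animals 1 to 6.

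The drug effect differed between animals 7 to 14 and animals 1 to 6, by edgeR's test of the difference, for Gpr17 under PB (0.54 on the log2 scale) and LEV (0.66), and under LEV for Sox6 (0.94), Vcan (0.58), Ptprz1 (0.38), Itpr2 (0.49), Frmd4a (0.32), Bmpr1a (0.52), Bmpr1b (1.30) and Notch3 (0.43).

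The VEH animal that the study excluded had normalised read counts above those of the 13 other VEH animals for 9 of the 10 genes: Pdgfra 4064, Cspg4 2289, Olig1 4576, Sox10 1420, Nkx2-2 196, Bmp4 347, Gpr17 1288, Enpp6 127 and Myrf 1498. These 9 were also above all 41 other animals, as were 25.5% of all tested transcripts.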

How the results depend on the processing

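No direction turned for a called gene. With the excluded VEH animal put back, 0 genes were called in every comparison that had called any. In the comparisons within animals 1 to 6 that animal entered only through the shared filter, scaling and spread. DESeq2 called 1 gene (Gpr17) in PB against VEH among animals 1 to 6, 1 (Myrf) among animals 7 to 14, where it gave Enpp6 no adjusted p, and 2 (Gpr17 and Pdgfra) for the LEV effect between forms. With a mean of at least 50 counts, Enpp6 was not tested, which left 1 call in PB against VEH among animals 7 to 14 and 0 over all animals, and the LEV effect had 2. With the muscle covariate the LEV effect had 2 and PB against VEH over all animals 2 (Enpp6 and Myrf). Leaving out each animal gave 1 to 2 calls for PB against VEH among animals 7 to 14, 0 to 1 for the PB effect, 1 to 2 for the LEV effect, 1 to 2 for PB against VEH over all animals and 0 to 1 for PB against LEV over all animals. The cause was not tested. Of 1051 values for single genes, 978 counted as unchanged, 62 moved, 6 lost a call and 5 gained one. Unchanged meant still called, or called in neither fit and within the SE of the main value. The size of a change was thus not compared for genes that kept a call.

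Most animals with the same number did not deviate together (correlation over 0.1 in 10 of 40 pairs, and 7 of 41 animals were most like one with their own number). Animals 8 (0.25 to 0.33) and 11 (0.14 to 0.28) were over 0.1 in each of their pairs. The number was not taken to pair animals in the main fit, which does not exclude shared litters. The replicate block changed no call among the 10 genes (adjusted p = 0.0488 for Enpp6 and 0.0196 for Myrf in PB animals 7 to 14, and 0.00079 for Gpr17 in LEV animals 1 to 6), and took the adjusted p of Pdgfra in LEV animals 1 to 6 to 0.094.

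Over all transcripts the counts of calls moved most for the PB effect (9, against 59 with DESeq2, 80 with the muscle covariate and 1 with all VEH animals) and the LEV effect (110, against 215, 186 and 6). LEV against VEH among animals 1 to 6 went from 119 to 36 with all VEH animals and PB against VEH among animals 7 to 14 from 199 to 129. Enpp6 had 22 to 94 reads per animal, the fewest of the 10 genes.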
